A study of Mus musculus with 15 samples.

Results

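Broad H3K4me3 domains were followed across the 3 conditions of a ChIP–seq experiment in mouse brown adipocyte cells. A broad domain was a region of chromosomes 1 to 19 in which at least 1 single peak of at least 1 of the 3 peak lists was 2000 bp wide or wider. Peaks of different lists were joined into 1 region when they shared at least 1 bp, and peaks of the same list were not merged. By this rule 880 of the 15110 regions were broad, and 389 of them were broad in the WT list. The WT + 2HG list held 637 and the CLPP-KO list 655. The domains were selected on their widths, so the widths that chose them are given as a description and without a test.

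The cells were mBA cells from brown adipose tissue, which the sample labels call primary and the methods of the study describe as preadipocytes immortalized with SV40 large T antigen and differentiated to mature brown adipocytes by day 8. The WT group was untreated wild type. The WT + 2HG group was the same genotype treated with 500 µM octyl d-2HG, a cell-permeable form of d-2-hydroxyglutarate given in DMSO, for 72 h. CLPP-KO cells lacked CLPP, the proteolytic subunit of the mitochondrial matrix protease ClpXP, received no 2HG, and were grown with uridine; uridine is not stated for the other groups. Each condition had 4 ChIP replicates and 1 input. The authors called the peaks of a condition on its 4 replicates together, so that each condition has 1 list, no value has a spread between replicates, and no difference between conditions was tested. Knockout, uridine and culture history cannot be told apart in these lists. The lists hold no read counts. The study states a nominal sequencing depth, but the depth of each library behind a width is unknown. The Clpp start site on chromosome 17 lay 261, 279 and 268 bp outside peaks of 661, 664 and 629 bp in the order WT, WT + 2HG, CLPP-KO, so the mark at this promoter is no check of the knockout. Where 3 values follow each other below, they are in this same order. The WT + 2HG and CLPP-KO lists are called the treated lists for short, although the CLPP-KO cells were untreated.

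H3K4me3 is placed on nucleosomes next to active and poised promoters by the SETD1 and KMT2 (MLL) methyltransferase complexes, which are drawn to unmethylated CpG-rich DNA. Most promoters carry it over a few nucleosomes. A small group carries it far into the transcribed region, and such broad domains are known from many tissues at genes for cell identity, developmental regulators and strongly transcribed signalling genes. KDM5 demethylases, which remove the mark, need 2-oxoglutarate, and d-2HG is a competitive inhibitor of this enzyme class.

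The DNA under the domains is shown here for 5 promoters, each the 200 bases before the canonical start of the gene in GRCm39, read in the direction of transcription, with every CG dinucleotide in capitals. One is the promoter of the domain with the widest WT peak (Anp32a, chr9:62248407-62248606, plus strand). Another is that of a domain whose widest peak is far wider in WT + 2HG than in WT (Irs1, chr1:82269339-82269538, minus strand). The others are those of a domain broad in CLPP-KO alone (Egr2, chr10:67373492-67373691, plus strand), of one broad in WT alone (Snai1, chr2:167379913-167380112, plus strand), and of one with no WT peak (Trim71, chr9:114393438-114393637, minus strand). All 5 were chosen with their widths known.
Anp32a: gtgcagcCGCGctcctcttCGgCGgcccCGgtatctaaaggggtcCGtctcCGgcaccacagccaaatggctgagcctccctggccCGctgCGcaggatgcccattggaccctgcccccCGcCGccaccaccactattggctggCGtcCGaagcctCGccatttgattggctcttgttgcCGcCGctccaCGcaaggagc
Irs1: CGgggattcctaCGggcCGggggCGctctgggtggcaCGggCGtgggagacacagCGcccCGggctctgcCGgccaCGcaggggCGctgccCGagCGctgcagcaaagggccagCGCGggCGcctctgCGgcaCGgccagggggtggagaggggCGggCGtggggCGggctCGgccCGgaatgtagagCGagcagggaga
Egr2: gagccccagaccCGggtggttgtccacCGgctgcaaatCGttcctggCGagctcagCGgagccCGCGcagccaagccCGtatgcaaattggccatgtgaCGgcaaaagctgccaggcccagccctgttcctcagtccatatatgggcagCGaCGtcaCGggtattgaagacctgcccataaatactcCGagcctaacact
Snai1: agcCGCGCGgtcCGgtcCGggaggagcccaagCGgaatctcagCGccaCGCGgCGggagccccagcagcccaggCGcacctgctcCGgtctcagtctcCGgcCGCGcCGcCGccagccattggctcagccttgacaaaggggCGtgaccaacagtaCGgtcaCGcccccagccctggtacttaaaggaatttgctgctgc
Trim71: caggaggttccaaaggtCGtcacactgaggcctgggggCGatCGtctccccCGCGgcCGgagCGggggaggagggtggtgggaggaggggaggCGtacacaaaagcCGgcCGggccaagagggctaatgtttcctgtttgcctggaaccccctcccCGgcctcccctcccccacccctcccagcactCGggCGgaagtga
The 200 bases held 17 CG in Anp32a, 24 in Irs1, 20 in Snai1 and 13 in both Egr2 and Trim71.

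Peaks of 2000 bp or more made up a small part of each list and a larger part of its marked DNA. They numbered 391 of 11988 peaks in WT (3.26%, 95% Wilson interval 2.96 to 3.59%), 638 of 13668 in WT + 2HG (4.67%, 4.33 to 5.03%) and 655 of 14461 in CLPP-KO (4.53%, 4.20 to 4.88%), where the intervals cover counting error only. They held 8.58, 11.6 and 11.5% of the base pairs covered by the peaks of their list. Both treated lists therefore had more broad peaks than WT, in number and as a share, and were close to each other. This was not particular to broad peaks. The median width of all peaks was 831, 890 and 876 bp, and 4123, 5646 and 5721 peaks reached 1000 bp. The median width of the broad peaks was 2293, 2322.5 and 2312 bp, and the widest measured 4341, 5586 and 5480 bp. At least 3000 bp were reached by 42, 74 and 90 peaks.

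**Figure D1:**
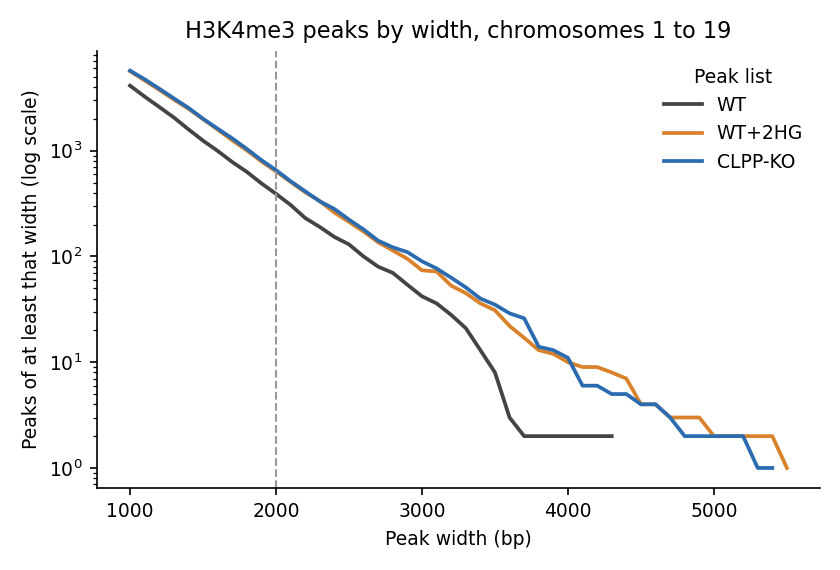
Number of peaks (y axis, log scale) at least as wide as the value on the x axis (bp) in each list, on chromosomes 1 to 19, with the 2000 bp threshold dashed. The WT + 2HG and CLPP-KO curves run together above WT, and the WT curve ends at 4341 bp.

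Broad peaks were also strong ones within their own list. Ranked by the authors' area under the curve, which is not scaled between lists, the median broad peak stood at percentile 97.4, 96.6 and 96.8, and 1, 7 and 6 of them lay below the median of their list. The summit −log10 p, which combines the 4 replicates, ranked them lower, at median percentiles of 86.2, 84.6 and 82.5. Area grows with width, so the area rank is in part the width itself. The lists as a whole differed in the same quantity, with a median summit −log10 p over all peaks of 10.1, 14.6 and 15.9, lowest in WT. The part of this difference in the widths was not tested.

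At the threshold of 2000 bp the largest group of domains was broad in every list. Of the 880 domains, 284 (32.3%) were broad in all 3 lists, 171 in WT + 2HG and CLPP-KO and not in WT, 164 in CLPP-KO alone, 156 in WT + 2HG alone, 43 in WT alone, 36 in CLPP-KO with WT, and 26 in WT + 2HG with WT. With the widest 5% of each list in place of the fixed width, 124 were broad in WT alone, and with peaks of a list merged within 500 bp, 479 were broad in every list. At 3000 bp, 28 of 116 domains were broad in every list and 58 in CLPP-KO and not in WT. Domains broad in every list were also the widest, with a median of 2651.5 bp in their widest list, against 2117, 2134 and 2141.5 bp for those broad in a single list. A peak was present in every list in 873 domains (99.2%), against 95.6% of the regions of 1000 bp or more below the threshold and 10877 of all 15110 regions, while 7 had none in WT, and none was absent from either treated list. Both treated lists are set against the same WT list, so the 171 domains common to them rest on that list as well.

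**Figure D2:**
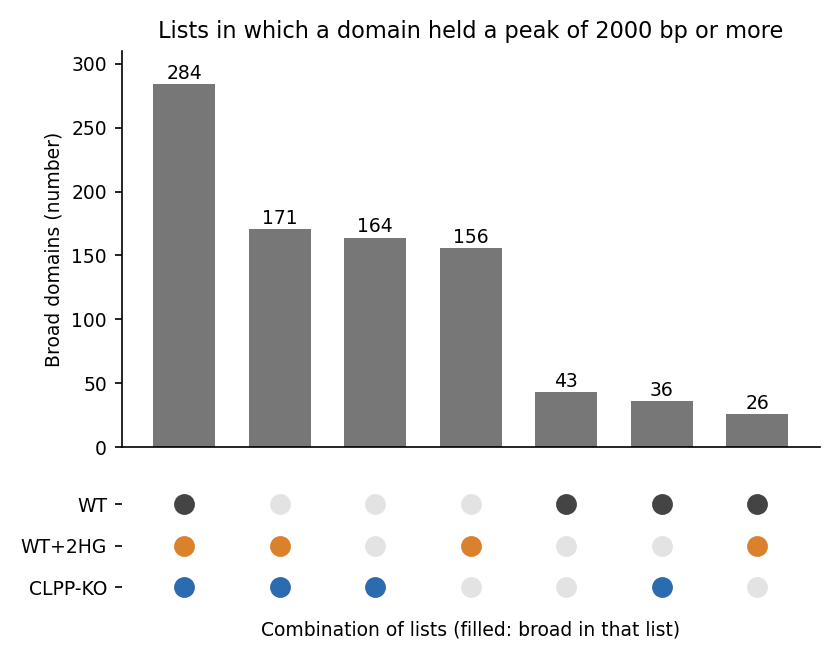
Number of broad domains (bars, y axis) for each combination of lists in which the domain held a peak of 2000 bp or more, marked by the filled circles below. The bar of 284 domains broad in all 3 lists is the tallest, and the 3 combinations that include WT and lack a treated list hold 43, 36 and 26.

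The threshold cut through a continuous range of widths. Within the last 100 bp below the threshold lay 190 regions, and within the first 100 bp above it 175 domains. Just inside, at 2002 bp in CLPP-KO, were the shared promoter of Pkp4, a plakophilin of cell junctions, and Ccdc148 (1491 bp in WT, 1446 bp in WT + 2HG), and that of Srsf1, a splicing factor (1391 and 1583 bp). Just outside, at 1999 bp, were Ext1, which builds heparan sulphate (1175, 1244 and 1999 bp), and Slc38a2, an amino acid transporter (1895, 1999 and 1963 bp). The domains of Srsf1 and Slc38a2 differ little in their widest list although only the former counts as broad. Widths here and below are those of the widest peak of the region, which need not hold the canonical start.

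Where a domain was broad in one list and not in another, the mark was seldom missing. Of the 335 domains broad in CLPP-KO and not in WT, 6 had no WT peak, 181 had a single narrower WT peak and 148 had 2 or more WT peaks in place of 1 (44.2%). In 101 of these 148 the WT peaks, measured from the first to the last base, spanned 2000 bp or more. The 327 domains broad in WT + 2HG and not in WT divided in the same manner, with 2 without a WT peak, 173 with a single narrower peak and 152 with split peaks, 114 of which spanned 2000 bp. In the opposite direction, splitting was seen in 12 of 69 domains broad in WT and not in CLPP-KO and in 26 of 79 broad in WT and not in WT + 2HG. Over the 873 domains with a peak in every list, the peaks were split in 255 (29.2%), 106 (12.1%) and 92 (10.5%), and over all 10877 regions found in every list in 6.66, 2.60 and 2.52%. Loss of breadth in WT was thus recorded nearly as often as a break within the domain as by a shorter single peak.

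The breaks differed in their DNA between WT and the treated lists. Within the broad domains the WT list had 273 gaps between neighbouring peaks, with a median length of 185 bp (interval of the median 173 to 202 bp), the WT + 2HG list 117 (170 bp, 159 to 196 bp) and the CLPP-KO list 95 (183 bp, 162 to 206 bp), so that gaps were about as long in each list. A canonical coding start, the position from which GENCODE M39 begins the main transcript of a gene, lay in 65 of the WT gaps (23.8%, Wilson interval 19.1 to 29.2%), in 12 of the WT + 2HG gaps (10.3%, 5.96 to 17.1%) and in 6 of the CLPP-KO gaps (6.32%, 2.93 to 13.1%). WT gaps held a median of 7.96 CG per 100 bp, close to the 7.55 of the whole domains, against 4.12 in WT + 2HG and 3.23 in CLPP-KO. WT gaps thus held a canonical start more often and were richer in CG than those of the treated lists. Over all regions the same measures were 33.1, 12.7 and 17.2% of gaps with a canonical start, and 9.75, 5.41 and 4.64 CG per 100 bp. Of the 273 WT gaps, 224 (82.1%) lay wholly inside 1 peak of WT + 2HG and 220 (80.6%) inside 1 peak of CLPP-KO, while 46 of 117 and 36 of 95 gaps of the treated lists lay inside 1 WT peak. Both pairs of shares depend on the rule, as 2 peaks of a list fall in 1 region only where peaks of other lists join them. In addition, a domain split in WT enters most often through an unbroken peak of another list. The cause of the breaks was not tested.

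**Figure D3:**
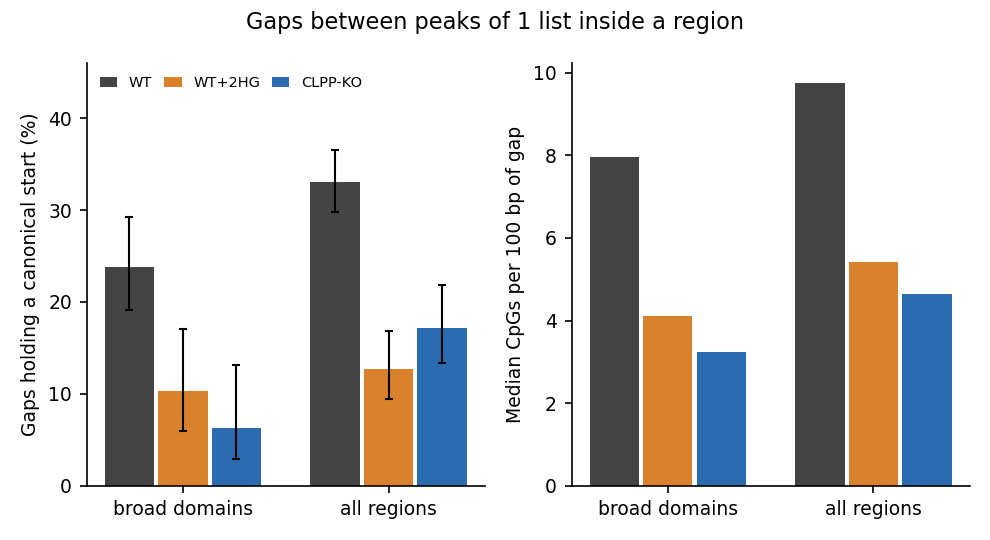
Left, percentage of gaps between peaks of the same list that hold a canonical coding start (bars) with 95% Wilson intervals of counting error (lines), and right, median CG per 100 bp of gap, for broad domains and for all regions. WT gaps (dark) hold a start in 23.8 and 33.1% of cases and have the highest CG density in both groups.

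Of these gaps 4, chosen after their values were seen, are shown for their base composition, again in GRCm39, in the direction of transcription of the gene and with CG in capitals. The WT gaps in the domains of Kmt2a, an H3K4 methyltransferase (chr9:44792640-44792924, minus strand, 303 to 19 bp before the start), Rbpj, the DNA-binding factor of Notch signalling (chr5:53748165-53748280, plus strand, in intron 1), and Klf13, a Krüppel-like factor (chr7:63588721-63588986, minus strand, 323 to 58 bp before the start), held 31 CG in 285 bases, 25 in 116 and 29 in 266. The CLPP-KO gap in the domain of Nfib (chr4:82424033-82424233, minus strand, 217 to 17 bp before the start) held 11 CG in 201 bases. None of the 4 holds the canonical start itself, and the Nfib gap lies as near to it as that of Kmt2a and is richer in CG than the median CLPP-KO gap.
Kmt2a: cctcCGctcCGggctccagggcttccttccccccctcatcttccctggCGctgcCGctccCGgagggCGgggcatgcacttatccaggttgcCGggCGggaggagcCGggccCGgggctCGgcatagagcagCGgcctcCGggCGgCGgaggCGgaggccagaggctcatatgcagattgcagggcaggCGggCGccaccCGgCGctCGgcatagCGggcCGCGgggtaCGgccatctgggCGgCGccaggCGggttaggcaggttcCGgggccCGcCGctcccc
Rbpj: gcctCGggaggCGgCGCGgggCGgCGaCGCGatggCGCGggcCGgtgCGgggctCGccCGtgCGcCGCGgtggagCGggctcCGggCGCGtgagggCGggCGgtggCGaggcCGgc
Klf13: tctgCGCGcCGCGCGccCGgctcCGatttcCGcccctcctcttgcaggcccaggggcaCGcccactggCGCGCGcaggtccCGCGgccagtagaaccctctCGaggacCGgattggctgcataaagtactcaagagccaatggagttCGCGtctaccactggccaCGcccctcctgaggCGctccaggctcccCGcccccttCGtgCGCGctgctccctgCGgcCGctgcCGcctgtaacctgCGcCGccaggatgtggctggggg
Nfib: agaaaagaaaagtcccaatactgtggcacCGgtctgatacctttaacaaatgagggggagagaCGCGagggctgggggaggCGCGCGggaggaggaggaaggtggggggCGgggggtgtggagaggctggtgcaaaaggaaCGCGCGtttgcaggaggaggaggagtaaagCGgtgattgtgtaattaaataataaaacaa
Across the gap the widest peak of Kmt2a measured 1718, 2689 and 3377 bp, that of Rbpj 2052, 3130 and 2923 bp, that of Klf13 2123, 3204 and 3251 bp, and that of Nfib 3256, 3372 and 1766 bp.

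The ratio of widths between lists is given with these breaks, and since a domain split in WT enters the set mostly through an unbroken peak of another list, its high ratio is in part fixed by the rule. Over the 873 broad domains with a WT peak the median width ratio was 1.11 for CLPP-KO over WT (interval of the median 1.09 to 1.14) and 1.12 for WT + 2HG over WT (1.09 to 1.14), values near those of all regions, 1.10 and 1.11. In the 618 domains with 1 WT peak the ratios were 1.05 for CLPP-KO and 1.06 for WT + 2HG, and in the 255 with 2 or more WT peaks they were 1.61 and 1.58. When the widths of all peaks of a list in the domain were summed, the medians fell to 1.08 in both comparisons. In the split domains the summed widths gave a median ratio of 1.11 in either treated list, far below that of the widest peak.

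A ratio of at least 1.25 for CLPP-KO over WT was found in 327 of 873 domains (37.5%), against 31.3% of all regions, and a ratio of at most 0.8 in 40 (4.58%), against 4.90% of all regions. For WT + 2HG over WT the counts were 320 (36.7%, all regions 31.3%) and 44 (5.04%, all regions 5.47%). For CLPP-KO over WT + 2HG they were 138 (15.7%, all regions 14.8%) and 96 (10.9%, all regions 12.1%). These contrasts are the ones that chose the domains, and nothing is read from their difference to the background. A comparison that the choice did not touch is that of the 2 treated lists over the 389 domains broad in WT, where CLPP-KO over WT + 2HG had a median ratio of 1.00 (0.990 to 1.01). Over the same 389 domains the ratio to WT was 1.01 (0.996 to 1.02) in CLPP-KO and 1.01 (0.996 to 1.02) in WT + 2HG, although the choice by WT width favours values under 1 there. Of the 389, 69 fell below the threshold in CLPP-KO and 79 in WT + 2HG.

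The widest domain of all, on chromosome 17 from 34336715 to 34342415, holds start sites of Brd2, a bromodomain protein that reads acetylated histones, and of H2-DMa, which loads peptides onto MHC class II. It measured 1818 bp in WT, where 3 peaks covered 4749 bp, and was a single peak of 5586 and 5480 bp in the treated lists. Irs1, an adaptor of the insulin receptor on chromosome 1, measured 2349, 5489 and 3077 bp in 4, 1 and 2 peaks. Mn1, a transcriptional coregulator, measured 2475, 2628 and 5287 bp. From first to last base the marked interval was long in every list at Brd2 (5134, 5586 and 5480 bp) and at Irs1 (5928, 5489 and 5808 bp), while the number of peaks in it differed.

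Nr2f2, the orphan nuclear receptor COUP-TFII, measured 2047, 4990 and 2887 bp. Smad7, the inhibitory Smad of TGF-β signalling, measured 3083, 4618 and 4777 bp. Anp32a, an acidic nuclear phosphoprotein, was nearly the same in each list at 4341, 4419 and 4417 bp, and Midn, which directs nuclear proteins to the proteasome, measured 3338, 4436 and 4284 bp in single peaks. Anp32a was thus a single peak of similar width in each list, and Midn a single peak that was wider in both treated lists. The remaining domains among the 10 widest were those of Tnrc18 (2434, 2729 and 4646 bp), Arhgef17 (2560, 4422 and 2062 bp), and Mex3b, an RNA-binding protein (2850, 4381 and 4026 bp).

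**Figure D4:**
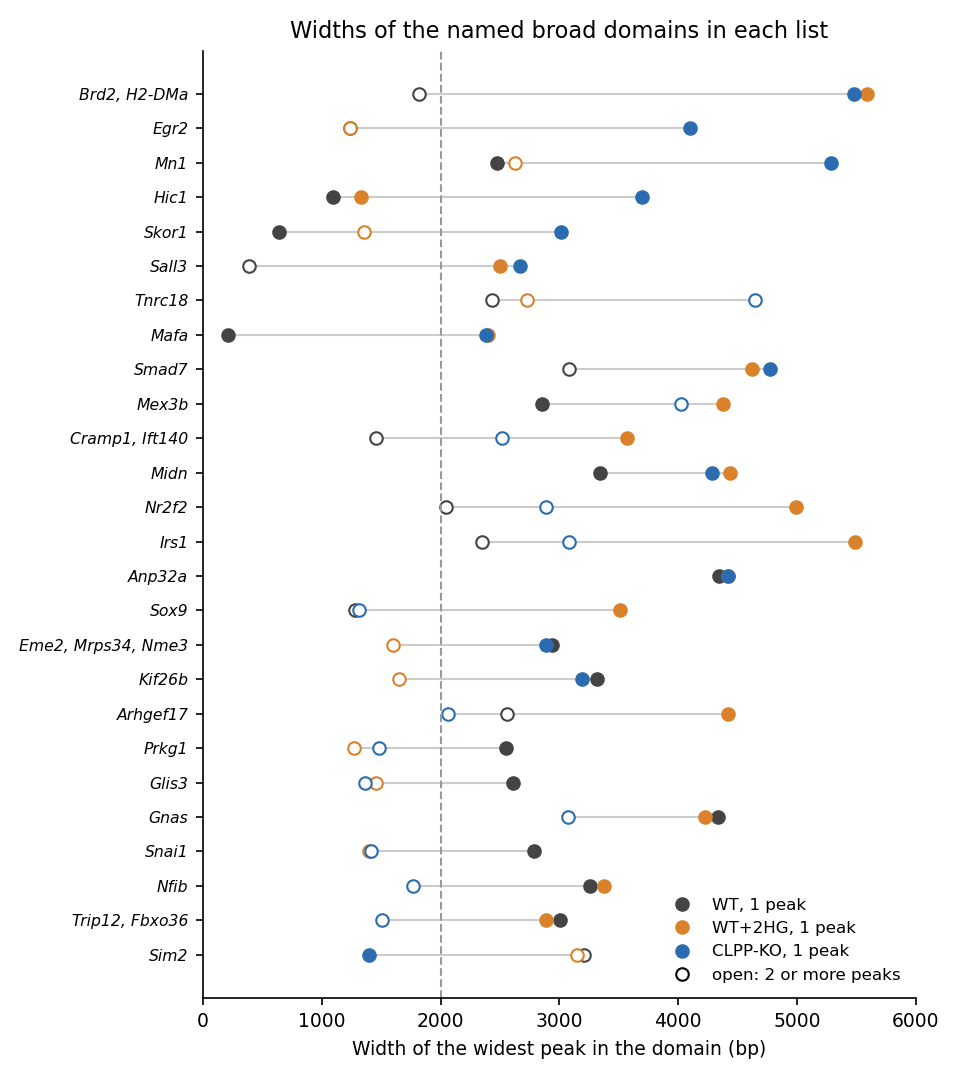
Width of the widest peak (x axis, bp) in each list for the named domains with a coding start, ordered by the difference between CLPP-KO and WT, with filled circles for a single peak and open circles for 2 or more peaks in that list. Many narrow values are open circles, as for Brd2 in WT and Snai1 in both treated lists, and Anp32a lies between 4341 and 4419 bp in every list.

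Among domains with a peak in every list, the 6 whose widest peak gained most in CLPP-KO relative to WT were those of Brd2, Mn1, Egr2, Hic1, Skor1 and Sall3. Egr2, an immediate-early zinc finger factor, measured 1239 and 1235 bp in WT and WT + 2HG, in 3 and 4 peaks, and 4099 bp in 1 peak in CLPP-KO. From first to last base it spanned 3800, 4056 and 4099 bp. Hic1, a transcriptional repressor, measured 1093, 1328 and 3695 bp, and Skor1, a corepressor of the Ski family, 641, 1357 and 3015 bp. Sall3, a zinc finger factor of embryonic patterning, measured 384, 2496 and 2670 bp. Hic1 had a single peak in every list, and Skor1 in WT and CLPP-KO. At Sall3 the span from first to last base was 886 bp in 2 WT peaks, against 2670 bp in CLPP-KO. By area in the WT list, Egr2, Hic1, Skor1 and Sall3 stood at percentiles 36.1, 40.6, 14.7 and 4.32, and Brd2 and Mn1 at 92.4 and 98.7.

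Narrowing in CLPP-KO was greatest at Sim2, a bHLH-PAS factor (3210, 3150 and 1394 bp), at the shared promoter of Trip12, a ubiquitin ligase, and Fbxo36 (3003, 2887 and 1506 bp), at Nfib, a nuclear factor I protein (3256, 3372 and 1766 bp), at Snai1, a repressor of epithelial genes (2788, 1401 and 1410 bp), at Gnas, the stimulatory G protein α-subunit (4333, 4226 and 3074 bp), and at Glis3, a Krüppel-like zinc finger factor (2611, 1459 and 1363 bp). Of these 6, only Sim2 had a single CLPP-KO peak, and its marked span fell from 5732 bp in WT and 5272 bp in WT + 2HG to 1394 bp. At Snai1 and Glis3 the 2 peaks of CLPP-KO still spanned 2970 and 2601 bp, against 2788 and 2611 bp in WT. In width, the loss at Sim2 was one of extent, and at Snai1 and Glis3 one of continuity. By area within each list, Snai1 stood at percentiles 97.2, 94.8 and 94.6, and Glis3 at 90.2, 65.9 and 51.9.

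Among domains with a peak in every list, the widest peak gained most in WT + 2HG at Brd2, Irs1 and Nr2f2. Next were Sox9, a factor of chondrocyte and progenitor fate (1277, 3514 and 1316 bp), Mafa (207, 2399 and 2384 bp), and the promoter shared by Cramp1 and Ift140 (1453, 3568 and 2513 bp). Sox9 was unbroken only in WT + 2HG, with 2 peaks in WT and 3 in CLPP-KO. From first to last base, Nr2f2 measured 4682 bp in WT and 4990 bp in WT + 2HG, and Sox9 3338 and 3514 bp. The Cramp1 and Ift140 promoter measured 3475 and 3568 bp, and Brd2 and Irs1 are given above. Of these 6, only Mafa had a much longer marked interval in WT + 2HG (207 and 2399 bp). The narrowest in WT + 2HG relative to WT were a locus of unnamed noncoding genes on chromosome 8 headed by Gm64014 (3384, 1353 and 3344 bp), Kif26b, a kinesin-family protein (3317, 1653 and 3189 bp), Snai1, the cluster of Eme2, Mrps34 and Nme3 (2942, 1596 and 2885 bp), Prkg1, a cGMP-dependent kinase (2547, 1273 and 1478 bp), and Glis3. All 6 had 1 WT peak and 2 or more WT + 2HG peaks.

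The 7 domains with no WT peak were Gm43517 on chromosome 12 (1414 bp with 2HG and 2961 bp in the knockout, the order used for the rest), Trim71, an RNA-binding ubiquitin ligase of early embryos (1537 and 2495 bp), Lbx1, a homeobox factor (1034 and 2440 bp), Neurod2, a neuronal bHLH factor (1489 and 2077 bp), and 3 domains with no start site inside. The latter were chr3:45334071-45336225 (682 and 2155 bp), chr2:73102999-73105179 (2097 and 2134 bp) and chr3:93352655-93354990 (2125 and 1996 bp). Each had a peak in both treated lists. By area within each list, the 7 stood between percentiles 16.4 and 56.8 in WT + 2HG and between 48.1 and 98.6 in CLPP-KO. These are ranks in lists of different length and signal, so they do not measure a change between conditions.

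Broad domains were almost all promoters of protein-coding genes. A coding start site lay inside 841 of the 880 (95.6%, Wilson interval 94.0 to 96.7%), against 93.3% of the 5857 mid-sized regions, which are 1000 bp or wider and stay under the threshold, and 62.2% of the 8373 narrower ones. Both a coding and a noncoding gene began in 450 (51.1%, 47.8 to 54.4%), against 35.6 and 13.6%, and coding genes began on both strands in 120 (13.6%), against 10.2 and 3.34%. A longer region holds more start sites by its length alone, and per kb the broad domains held 4.30 start positions, fewer than the 6.89 of mid-sized regions. Of the 39 domains with no coding start, 10 ended within 500 bp of a canonical coding start, among them those of Sox4 (2048, 1991 and 2122 bp), Egr1 (3245, 3201 and 2304 bp) and Zfp503 (3301, 3336 and 3347 bp), and 21 lay over 2000 bp from any. The latter included the long noncoding RNA gene Neat1 (2136, 2101 and 2127 bp), the microRNA host gene Mir17hg (1585, 2253 and 1557 bp) and Dleu2 (2258, 2390 and 2320 bp at 1 of its 2 domains).

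The DNA of broad domains was rich in CpG, though hardly more so than that of mid-sized regions. The ratio of observed to expected CpG had a median of 0.758 (quartiles 0.672 and 0.841) in broad domains, 0.758 in mid-sized regions and 0.689 in narrower ones, and GC content was 63.4, 62.7 and 61.0%. Within 1000 bp centred on the canonical start the ratio was 0.826, 0.801 and 0.698, and the CpG density 8.80, 7.80 and 5.70 per 100 bp. The order by width was thus present close to the start, where the length of the region plays no part.

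Promoter windows from 250 bp before to 50 bp after the canonical start were searched on both strands for 6 sequences. GGGCGG, the core of the Sp1 GC box, was found in 76.3% (73.3 to 79.0%) of 868 starts in broad domains, 71.1% of 5067 starts in mid-sized regions, 63.4% of 3545 in narrower regions, and 43.1% of all 20583 coding starts. TATAAA was found in 5.30% of starts in broad domains, 5.21 and 7.84% in the narrower classes, and 13.3% of all. CCAAT was found in 35.1, 35.1 and 40.3%, with 39.5% of all, CACGTG, an E-box, in 11.3, 10.8 and 11.0%, with 7.87% of all, TGACTCA, an AP-1 site, in 17 of 868 starts (1.96%), 142 of 5067 and 113 of 3545 (3.19%), with 4.67% of all, and the NRF1 palindrome in 1.04, 2.21 and 1.75%, with 1.18% of all. GGGCGG is the only one of the 6 whose share rose with the width of the region across all 3 classes beyond its counting intervals, and these windows have a median of 26, 23 and 17 CG. A match is a description of the letters and not of a bound factor.

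The domains reached mainly into the gene. Among 627 domains with coding starts on 1 strand and a canonical start inside the widest peak, 590 (94.1%) extended further downstream than upstream, as did 94.3% of all regions, and a median of 77.0% of the width lay downstream, against 80.6% in mid-sized regions and 86.6% in narrower ones. The broad domains thus gained on both sides of the start, and relatively more upstream. The downstream end lay in intron 1 of the canonical transcript in 435 (69.4%, all regions 78.8%), in a later intron in 98 (15.6%, all regions 9.11%), in exon 1 in 57 (9.09%, all regions 8.29%), in a later exon in 31 and beyond the gene in 6. The first exon of these genes had a median length of 610.5 bp, against 356 and 236 bp in the narrower classes, and 6.25% had a single exon, against 2.15 and 1.93%. In 6 genes a single peak covered the whole canonical transcript: Junb, Jund, Arf6, Gadd45g, H2ax and Tmem200b.

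In the 331 domains with 1 peak and the start inside in every list, the upstream edge lay at a median of 455, 512 and 509 bp and the downstream edge at 1583, 1632 and 1648 bp. Measured domain by domain, the upstream edge was further out than in WT in 236 (71.3%) in WT + 2HG and in 221 (66.8%) in CLPP-KO, by medians of 38 and 30 bp, and the downstream edge in 199 (60.1%) and 198 (59.8%), by a median of 41 bp in both. All 4345 such regions gave 68.7 and 68.1% upstream and 59.7 and 60.0% downstream. The shares in broad domains thus lay within a few percentage points of those in all regions, and the shifts were shorter than a nucleosome.

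**Figure D5:**
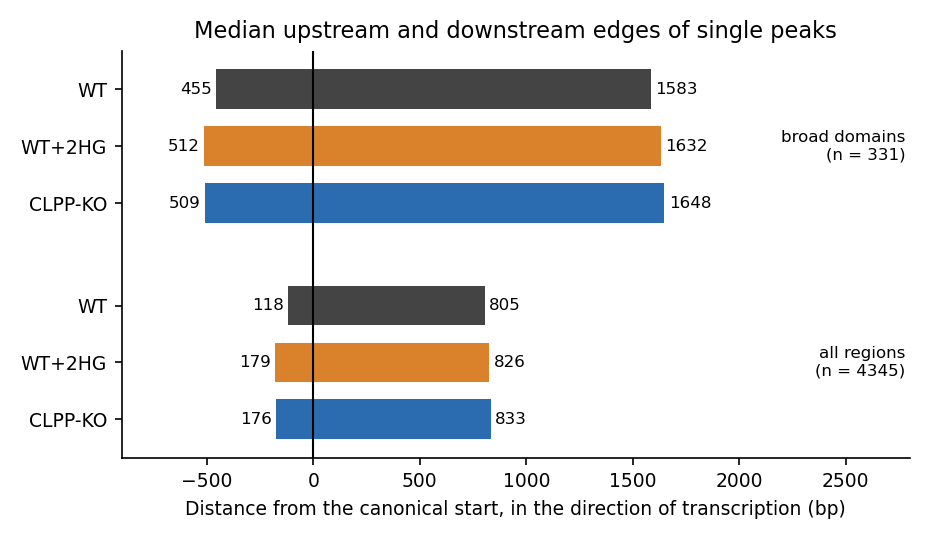
Median position of the upstream and downstream edge (bar ends, bp from the canonical start, which is the vertical line) of single peaks in each list, for 331 broad domains and for 4345 regions of any width. In both groups the WT + 2HG and CLPP-KO bars are slightly longer than the WT bar, at both ends.

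Of 11663 coding genes on chromosomes 1 to 19 with a start inside any region, 978 (8.39%) had one inside a broad domain. Against this background, lists of genes were counted as broad members of marked members. The lists were chosen with earlier results of these data known, the counts follow from the rule, and they are descriptions. Immediate-early and AP-1 factors counted 16 of 27, mesenchymal and preadipocyte regulators 16 of 28, Wnt, Notch and Hedgehog genes 13 of 27, adipogenic transcription factors 11 of 26 and cell-cycle regulators 8 of 20. At the other end, cytosolic ribosomal proteins counted 0 of 29 (2 of 69 when all were taken), adipocyte lipid and adipokine genes 1 of 17, genes named Nduf, Cox, Atp5 or Uqcr, most of which encode respiratory chain or ATP synthase subunits, 2 of 73, mitochondrial ribosomal proteins 3 of 67 and replication-dependent histones 0 of 17. The median width of the 29 ribosomal protein genes was 1190 bp in the widest list, against 1102 bp over all 11663 marked coding genes. The examples below are the widest members of each list, and those chosen after their values were seen are marked as such.

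Adipogenic factors were led by Klf4 (2812, 3519 and 3772 bp) and Klf9 (3210, 2690 and 3393 bp), Krüppel-like factors that act in adipogenesis, followed by Nfib (3256, 3372 and 1766 bp) and by Cebpa, a C/EBP factor of terminal differentiation (2538, 3180 and 3046 bp). Klf4, Klf9 and Cebpa were broad in every list, and Nfib was not broad in CLPP-KO. Nr3c1, the glucocorticoid receptor, was broad in the treated lists (1725, 3110 and 2959 bp), and Zfp423, which favours the white fate, in every list (2215, 2081 and 2751 bp). Chosen after their values were seen, Cebpb (2693, 2051 and 2053 bp) and Cebpd (2092, 2030 and 2263 bp), which start the programme, were broad in every list too, while Pparg, its main regulator, was broad in none (573, 1549 and 713 bp). Fasn, encoding fatty acid synthase, was the 1 broad lipid gene (1416, 2038 and 2454 bp).

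In the brown fat list, 4 of 15 marked genes were broad, and each of the 4 in every list. Prdm16, a determinant of brown fat identity, measured 3104, 3634 and 3380 bp, and Ppargc1b, a coactivator of mitochondrial biogenesis, 2635, 2673 and 2672 bp. Foxc2 measured 2282, 2373 and 2232 bp, and Zbtb16, a zinc finger regulator, 2330, 2344 and 2147 bp. Of the 12 defining markers of brown adipocytes, however, 3 had a canonical start inside a peak of any list (Prdm16, Cidea and Pparg) and 1 in WT (Prdm16), and for 9, among them Ucp1, Fabp4, Adipoq and Plin1, no peak lay within 500 bp of it. Most genes that define a mature brown adipocyte thus carried no called peak at their canonical start. The same was true of some genes used in most cells, such as Actg1, encoding a cytoplasmic actin, whose canonical start lay 29181 bp from the nearest WT peak, so that a missing peak does not settle the cell state. By the same measure 0 of 10 leukocyte, 1 of 10 endothelial, 1 of 10 muscle and 2 of 9 neuronal and Schwann cell markers had a canonical start inside a peak. Counted by any start inside a region, they were 0, 2, 1 and 6, and none was broad.

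The widest mesenchymal regulators were Nr2f2, given above, Meis2, a homeobox cofactor (2561, 3716 and 2244 bp), and Sox9, also given above, followed by Hmga2, an architectural protein of growing mesenchyme (3174, 3119 and 3441 bp), Foxp1, a forkhead repressor (3070, 3046 and 2866 bp), and Runx2, the osteoblast factor (2766, 2918 and 2962 bp). The last 3 were single peaks in every list, while Meis2 was in 2 or more peaks in each. The peak over the canonical start was narrower at Foxp1 (1268, 1331 and 1278 bp) and at Meis2 (392, 370 and 262 bp). The widths given for these genes are thus those of other peaks. Pdgfra, the receptor of adipocyte progenitors, chosen after its values were seen, was broad in WT + 2HG only (1416, 2225 and 1488 bp). The peaks nearest its canonical start, 429, 471 and 438 bp away, measured 1032, 1749 and 1963 bp. None of these was broad, and the broad peak is thus another one.

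Immediate-early genes respond to serum and stress within minutes. After Egr2, the widest were Zfp36l2, a binder of AU-rich mRNAs (3287, 3538 and 3519 bp), Fosl2, an AP-1 subunit (2962, 3403 and 3298 bp), and Klf10, a TGF-β-induced factor (2634, 2995 and 3241 bp), all broad in every list. At Fosl2 the WT peak over the canonical start measured 398 bp, so the WT width given is that of another peak. Dusp1, a MAP kinase phosphatase, was not broad in WT + 2HG (2485, 1508 and 3175 bp), where it was in 2 peaks, and Junb, an AP-1 subunit, was broad there alone (1804, 2941 and 1838 bp), with 2 peaks in each of the other lists.

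In Wnt, Notch and Hedgehog signalling the widest members were the Hedgehog receptor gene Ptch1 (3463, 3419 and 3444 bp), the Notch ligand gene Jag1 (3362, 3340 and 3360 bp), Rbpj, the Wnt receptor genes Fzd8 (2929, 3004 and 2955 bp) and Fzd7 (2774, 2759 and 2506 bp), and Axin2, a feedback inhibitor of Wnt signalling (2536, 2942 and 2341 bp). Those of Ptch1, Jag1 and Fzd8 varied by less than 100 bp between lists. In TGF-β signalling 7 of 30 were broad, led by the inhibitory Smads Smad7 and Smad6 (2193, 3685 and 3057 bp), the latter in 4 WT peaks and 1 peak in each treated list. The ligand gene Tgfb1 (2886, 2068 and 2870 bp), the corepressor gene Ski (1891, 2481 and 2643 bp) and Smad3, a signal-transducing Smad (1783, 1917 and 2473 bp), followed. The peaks nearest the canonical start of Ski were others, of 579, 469 and 554 bp.

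Of the 17 marked genes in the list of H3K4 methyltransferase subunits, demethylases and their relatives, 4 were broad. Kmt2a (1718, 2689 and 3377 bp) and Kmt2d (1850, 2112 and 2825 bp), catalytic subunits of methyltransferase complexes, were both broad in the treated lists and not in WT. Setd1b (2873, 2723 and 2518 bp) and Kdm2a, a CpG-binding demethylase of H3K36 (2208, 1268 and 2734 bp), were broad in WT too, though Kdm2a was not in WT + 2HG, where it was in 2 peaks. Kdm6b, an H3K27 demethylase named after its values were seen, had no coding start inside a domain, yet a domain of 2990, 3183 and 3258 bp ended 1509 bp from its canonical start. Of the cell-cycle genes, Cdk6, a cyclin-dependent kinase, measured 2333, 2357 and 3876 bp, and the inhibitor gene Cdkn1b 1954, 2672 and 2570 bp. The peak over the canonical start of Cdk6 was another one in WT (1214 bp) and in WT + 2HG (1301 bp). Ccnd1, encoding cyclin D1 and chosen after its values were seen, measured 573, 657 and 2316 bp.

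Of the stress and structural lists, the integrated stress response counted 4 of 20 (Atf5, Ddit4, Slc7a5 and Vldlr), the nuclear envelope and lamina 3 of 19 (Lmnb1, Banf1 and Lemd3) and the actin cytoskeleton and matrix 6 of 24. Ddit4, an inhibitor of mTORC1, measured 1845, 2563 and 2547 bp, and Atf5, a factor of the mitochondrial stress response, 1771, 2409 and 1230 bp. Lmnb1, encoding lamin B1, measured 1735, 2754 and 2432 bp. All 3 had 2 peaks in WT. Col5a1, a fibrillar collagen gene, measured 2673, 1760 and 1846 bp, Zyx, encoding the adhesion protein zyxin, 1334, 2459 and 2140 bp, and Col4a1 and Col4a2, which share a promoter and encode basement membrane collagen, 2032, 2340 and 2444 bp.

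Gene families were counted likewise. Krüppel-like factors counted 8 of 13, nuclear receptor genes named Nr 8 of 17, Jun, Fos, Egr and Atf genes 7 of 17, Fox genes 11 of 28, Sox genes 4 of 12, Zic and Gli genes 3 of 6 and Tbx genes 2 of 7. Hox genes counted 3 of 22, 7 homeobox and paired families from Nkx to Msx 5 of 33, the Wnt, Fzd, Bmp and Fgf genes 8 of 44, collagens 3 of 24, clustered protocadherins 0 of 4 and genes named Zfp 18 of 266. In the Fox family the widest were Foxo3 (3468, 3361 and 3164 bp), which restrains growth under insulin signalling, and Foxf1, a mesenchymal factor (3017, 3181 and 2921 bp), both broad in every list. The Hox domains were those of Hoxa3 (2439, 1539 and 2374 bp), Hoxb9 (987, 730 and 2166 bp) and Hoxa7 (1877, 2064 and 1901 bp), each broad in a different set of lists.

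None of the 4 Sox genes with a coding start inside a broad domain reached 2000 bp in WT. After Sox9, Sox11 measured 838, 2109 and 2477 bp, Sox12 1662, 2381 and 2015 bp and Sox21 554, 2035 and 2003 bp. The domain near Sox4, 2048 bp in WT, holds no coding start and is not counted here. Among the broad genes of the Nkx to Msx families, Irx5 (1659, 1908 and 3686 bp), Irx3 (1411, 2873 and 2752 bp) and Pax2 (522, 1433 and 2107 bp), factors of neural, limb and kidney patterning, were not broad in WT. Zic5, a zinc finger factor of neural patterning, measured 826, 2424 and 2118 bp. Of the nuclear receptor genes named Nr, 1 of the 8 broad members was broad in WT (Nr2f2), while 8 of 11 broad Fox genes and 6 of 8 broad Krüppel-like factors were, against 389 of the 880 domains. Nuclear receptors under other names, such as Pparg and Rxra, are outside this family.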

How the data were processed

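H3K4me3 ChIP–seq was analysed from the 3 peak lists of the series. Per the submitters' processing notes and the study's methods, the authors trimmed reads with fastp 0.23.4, mapped them with BWA-MEM 0.7.17 to GRCm39 and called peaks with Genrich 0.6.1 at q of 0.05 on the 4 replicates of a condition together, with 1 input per condition. The deposited columns used were the start, end and summit positions, the signal (area under the curve, the authors' value, not scaled between lists) and the summit −log10 p-value deposited by the authors. The stated minimum area was 20, but the smallest area in each deposited list is 200.0 and the q column is −1 throughout, so the settings behind these files may differ from those stated. The score column was not used. The edges of a peak depend on the significance threshold and the other settings of the caller. Widths and gap lengths can thus depend on these settings, and on depth and replicate agreement, which the lists do not give.

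Peaks of chromosomes 1 to 19 were joined across lists by 1 bp, and start sites came from GENCODE M39. Shares have 95% Wilson intervals and medians binomial order-statistic intervals, both for counting error only. No test was made, as each condition has 1 list. The members and gene lists were chosen with earlier results of these data known. Named genes were those in the 10 widest domains, the 5 widest domains without a WT peak, and the 2 regions nearest the threshold on each side. Also named were the 6 domains with the largest difference in each direction between WT and each treated list, among domains with a peak in every list. For many gene lists and families up to 6 broad members by largest width were named, and for some none. The last 2 domains without a WT peak, domains without a coding start, genes whose whole transcript a peak covers, genes shown for their gaps and those so marked in the text were chosen after their values were seen. One member of a gene family is not reported here. Alternatives changed the width threshold, the joining and merging of peaks, the p threshold, the list size, the chromosomes and the assignment of start sites. The joining was tested on simulated data with known regions. The tools were matplotlib 3.10.9, scipy 1.17.1, pandas 2.3.3 and numpy 2.4.6 under Python 3.11.15.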

Additional observations from a re-analysis of the deposited data

Results flagged for a closer look

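Peaks of 2000 bp or more outside chromosomes 1 to 19 were left out of the domains and are listed because the treated lists held more of them than WT. Chromosome X carried 6 in WT + 2HG and 11 in CLPP-KO, against 4 in WT. Unplaced or unlocalized contigs carried 10 in CLPP-KO, the widest of 7949 bp, and 0 in both other lists. These differences were not tested. The peak-calling commands that the study reports exclude chromosome X and a list of named contigs. Peaks there are therefore not what the stated settings would give.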

How the results depend on the processing

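No paired analysis was possible because each condition has 1 peak list called on its 4 replicates together. A fit without one of the replicates could not be made either. Of 108 values under alternatives, 77 stayed within 1.5 times the count or inside the interval reported, and 31 moved. Other width thresholds changed the counts most. At 1500 bp there were 2560 domains, 989 broad in all 3 lists, 943 in CLPP-KO and not in WT and 918 in WT + 2HG and not in WT, and at 3000 bp 116, 28, 58 and 40. Merging peaks of a list within 500 bp raised the domains broad in all lists to 479. The median ratio of CLPP-KO to WT was 1.15 at 3000 bp, 1.09 for the widest 5% of peaks, 1.07 after merging, 1.09 with reciprocal overlap, 1.03 with only broad peaks joined and 1.08 with summed widths. That of WT + 2HG to WT was 1.09 at 3000 bp, 1.08 for the widest 5%, 1.07 after merging, 1.03 with only broad peaks joined and 1.08 with summed widths. In domains with 1 peak in each list, an alternative chosen after seeing the data, both ratios were 1.06. Each of these ratios to WT was above 1, but choosing domains by the width of any list, treated lists included, favours such values. Nothing is read from it, and over the 389 domains broad in WT both ratios were 1.01. The cause of the shifts between settings was not tested. Limiting each list to the length of the shortest by area changed none of the 5 counts of domains. The peaks removed ranked below every broad peak, whose lowest area percentile was 29.7 in WT + 2HG and 31.9 in CLPP-KO. These counts were thus all but fixed in advance, as were those with only broad peaks joined. Both are among the values that stayed, and neither shows that list length plays no part. Domains broad in WT alone numbered 43, and 98 at 1500 bp, 4 at 3000 bp, 124 for the widest 5% and 68 after merging. With 1 start per gene at its annotated 5′ end the share of domains with a coding start was 74.0%, in place of 95.6%, and with a canonical start within 500 bp, also chosen later, 91.8%. The lists hold no depth, so its part in the widths could not be measured.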
